A study of Mus musculus with 6 samples.

Results

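The SPOCK genes and the GPM6 genes are small families best known from the nervous system. SPOCK1, SPOCK2 and SPOCK3 encode the testicans, secreted proteoglycans of the extracellular matrix that carry glycosaminoglycan chains and share a calcium-binding domain with SPARC (osteonectin). Testicans are known to act on extracellular proteases, among them membrane-type matrix metalloproteinases (MMPs) and cathepsin L. GPM6A and GPM6B encode proteolipid proteins that cross the membrane several times. GPM6A is known for its part in the outgrowth of neuronal filopodia. PLP2, the gene of a small colonic-epithelium-enriched proteolipid, shares the name proteolipid but belongs to the MARVEL-domain proteins.

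The 6 genes were taken by symbol from the 58735 genes of the count table, and each symbol matched 1 gene. The families were chosen because SPOCK2 and GPM6A differed strongly between the groups in these same libraries. Their differences are therefore descriptions, and no p-value is given for any of the 6 genes. RNA-Seq covered parental 22Rv1 cells, which were cultured with vehicle, and the 22Rv1 BL-B01D1_R subline, which was selected under rising concentrations of BL-B01D1, with 3 libraries in each group. The 22Rv1 line comes from a human prostate cancer, although the sample labels name mouse as the organism. BL-B01D1 is an antibody-drug conjugate against EGFR and HER3 with a topoisomerase I inhibitor as payload. The resistant cells came from 1 selection, and the 3 libraries of a group were not stated to be separate cultures, so p-values and SDs cover only the spread between these libraries.

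Libraries held between 13821639 and 17251491 counts on genes. The filter on low counts kept 17142 genes, the 6 genes among them, with 18 counts as the lowest and 2439 as the highest value of any of them in a library. Levels are given in CPM, counts on a common library size of 1e6 after TMM scaling, and 3 counts of a library are worth 0.174 to 0.216 CPM. The labelled cell type was checked with 10 markers of prostate luminal epithelium, including FOLH1. All 10 were tested, of which 6 passed an FDR below 0.05 as higher, 3 as lower and 1 did not pass, with log2 fold changes from −0.48 to 0.91. Of all tested genes, 17.1% passed as higher and 18.4% as lower. A pass as higher (FDR 0.0423 from edgeR) and a pass as lower (FDR 0.0437) were lost under several alternatives. Their summed level was 3448 to 3550 CPM in parental and 3640 to 3728 CPM in resistant libraries.

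SPOCK1, SPOCK2 and GPM6A were higher in resistant cells, SPOCK3 and PLP2 were lower, and the libraries of the groups overlapped for GPM6B. A gene was called when edgeR's quasi-likelihood test gave an FDR below 0.05 and a log2 fold change above 1 or below −1. By these thresholds 3 of the 6 genes were called higher, where 2.53% of all tested genes were called higher. None was called lower (0 with edgeR, DESeq2 and limma-voom). SPOCK3 and PLP2 lay below the FDR threshold in edgeR, the same 2 genes as at an unadjusted p under 0.05, but not beyond the fold threshold. SPOCK3 no longer lay below the FDR threshold without parental library 2 or without resistant library 1. Of all tested genes, 2.84% were called lower. The groups did not overlap for 5 of the 6 genes, as for 44.8% of all tested genes. Since the families were chosen on this contrast, nothing is read from these counts.

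**Figure D1:**
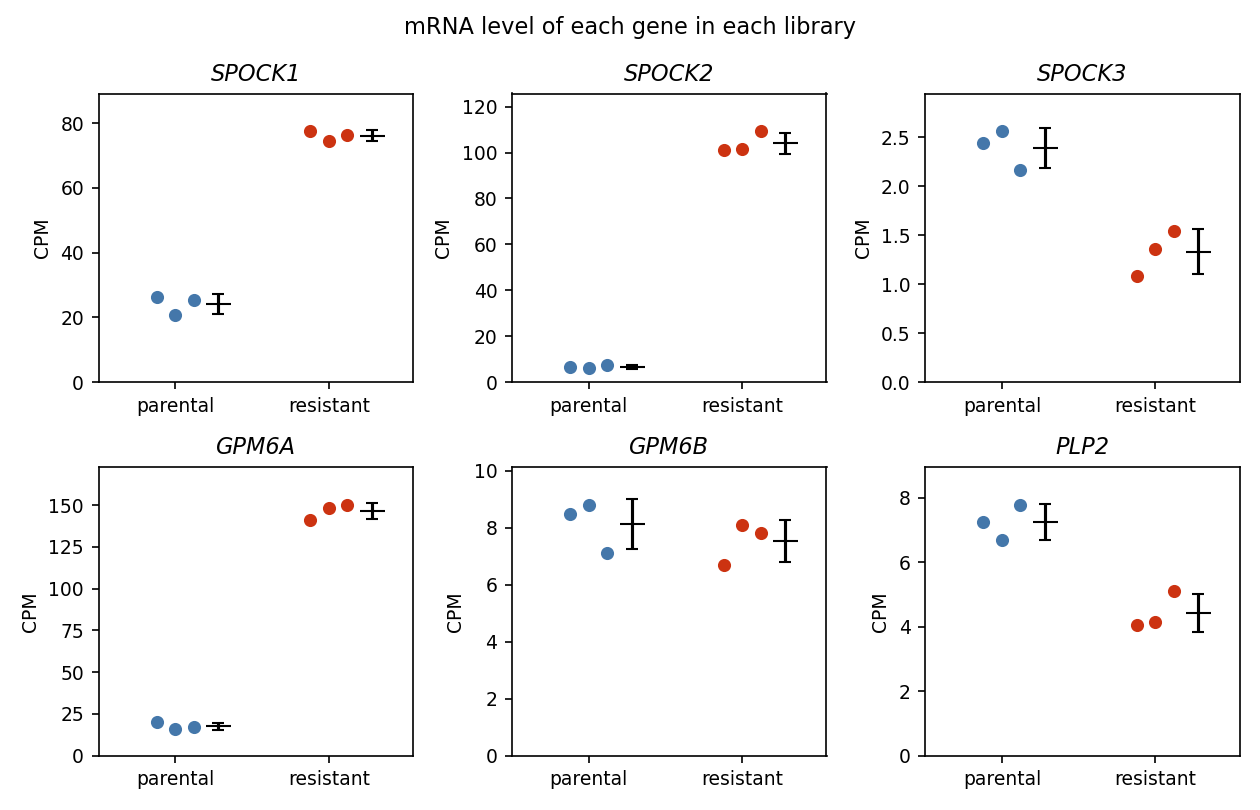
Level of each gene in CPM (vertical axes from 0, a different scale in each panel) in the 3 parental (blue) and 3 resistant (red) libraries, with the mean and SD in black. SPOCK2 and GPM6A stand furthest apart, at 6.58 against 104.0 CPM and at 17.6 against 146.5 CPM, whereas the points for GPM6B overlap.

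SPOCK2 (ENSG00000107742; chromosome 10 in the hg38 build, 72059035 to 72089032, reverse strand) encodes testican-2. Its level was 6.44, 5.96 and 7.35 CPM in parental libraries 1, 2 and 3, as against 101.1, 101.7 and 109.3 CPM in the resistant ones. Every resistant library was far above every parental library, and the libraries of a group lay close together. The group means were 6.58 ± 0.707 CPM (SD, n = 3) and 104.0 ± 4.55 CPM (SD, n = 3), a log2 fold change of 3.99 (SE 0.0742), or 15.9-fold. SPOCK2 stood at place 13 of the 17142 tested genes when these were ordered from the highest log2 fold change down.

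SPOCK1 (ENSG00000152377; chromosome 5, 136975298 to 137598379, reverse strand) encodes testican-1, the founding member of the family. Its level was 26.2, 20.6 and 25.5 CPM in parental cells, library by library, and 77.5, 74.4 and 76.5 CPM in resistant cells. Parental library 2 was the lowest, and the groups were well apart. The log2 fold change was 1.66 (SE 0.0659), or 3.16-fold, from 24.1 ± 3.06 to 76.1 ± 1.60 CPM (SD, n = 3 each).

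SPOCK3 (ENSG00000196104; chromosome 4, 166733384 to 167234796, reverse strand), which encodes testican-3, was the weakest of the 6 genes. Parental libraries held 42, 43 and 30 counts of it (2.44, 2.56 and 2.16 CPM), and resistant libraries held 18, 20 and 25 counts (1.09, 1.36 and 1.54 CPM). The groups did not overlap, but the gap between them, from 1.54 to 2.16 CPM, was narrow. The log2 fold change was −0.85 (SE 0.277), with a 95% confidence interval of −1.41 to −0.29, so its size is loosely set. With the groups on opposite sides for SPOCK2 and SPOCK3, the members of the SPOCK family did not share 1 direction.

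GPM6A (ENSG00000150625; chromosome 4, 175632934 to 176002664, reverse strand) encodes a neuronal membrane glycoprotein. Its level was 20.0, 16.0 and 16.9 CPM in parental cells, library by library, and 141.2, 148.1 and 150.3 CPM in resistant cells. The groups were far apart, as for SPOCK2. Mean levels were 17.6 ± 2.08 and 146.5 ± 4.73 CPM (SD, n = 3 each), a log2 fold change of 3.05 (SE 0.0583), or 8.29-fold. This put GPM6A at place 36 in the same order. A gene annotated as antisense to it, AC097537.1, had no more than 7 counts in any library, against 235 to 2439 for GPM6A, and reads of the pair cannot be told apart if strand was not used in counting.

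GPM6B (ENSG00000046653; chromosome X, 13771031 to 13938638, reverse strand), the paralog of GPM6A, was at 8.47, 8.81 and 7.13 CPM in parental cells, library by library, and 6.70, 8.09 and 7.83 CPM in resistant cells. The groups overlapped. The log2 fold change was −0.12 (SE 0.135), with a 95% confidence interval of −0.39 to 0.15, which leaves out changes of the size seen for GPM6A.

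PLP2 (ENSG00000102007; chromosome X, 49171926 to 49175239, forward strand) was at 7.25, 6.67 and 7.78 CPM in parental cells, library by library, and 4.04, 4.15 and 5.12 CPM in resistant cells. All resistant libraries were lower. The log2 fold change was −0.70 (SE 0.160), with a 95% confidence interval of −1.02 to −0.38.

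Levels of different genes were compared per length, in FPKM (CPM divided by the listed gene length in kilobases). In parental cells PLP2 was the highest of the 6 genes at 5.66 ± 0.434 FPKM (SD, n = 3), followed by SPOCK1 at 3.88, GPM6A at 2.50, GPM6B at 1.43, SPOCK2 at 1.00 and SPOCK3 at 0.532 FPKM. In resistant cells GPM6A came first at 20.8 ± 0.672 FPKM (SD, n = 3), followed by SPOCK2 at 15.8, SPOCK1 at 12.2, PLP2 at 3.47, GPM6B at 1.33 and SPOCK3 at 0.297 FPKM. Neighbors in either order did not overlap in any of their 3 libraries. Among the tested protein-coding genes, the FPKM of SPOCK2 moved from percentile 17.4 to percentile 77.3, and that of GPM6A from 30.1 to 83.2. GPM6B stayed near percentile 21, at 21.7 and 21.0.

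The make-up of each family differed as well. Of the summed FPKM of the SPOCK genes, SPOCK1 held 71.5% ± 2.18 (SD, n = 3) in parental and 43.2% ± 1.18 (SD, n = 3) in resistant cells. SPOCK2 held 17.1%, 18.9% and 19.6% in parental cells, library by library, and 54.8%, 55.8% and 56.8% in resistant cells, where it stood above SPOCK1 as the most abundant testican mRNA. SPOCK3 held 9.95% and 1.04% on average, a share that depends on the levels of the other members as well as on its own. GPM6A held 63.5% ± 3.61 of the GPM6 sum in parental and 94.0% ± 0.402 in resistant cells (SD, n = 3 each). The sums themselves were 5.24 times higher for SPOCK (5.41 against 28.4 FPKM) and 5.62 times higher for GPM6 (3.94 against 22.1 FPKM) in resistant cells. In bulk RNA, more cells that express a gene and more RNA per cell cannot be told apart.

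**Figure D2:**
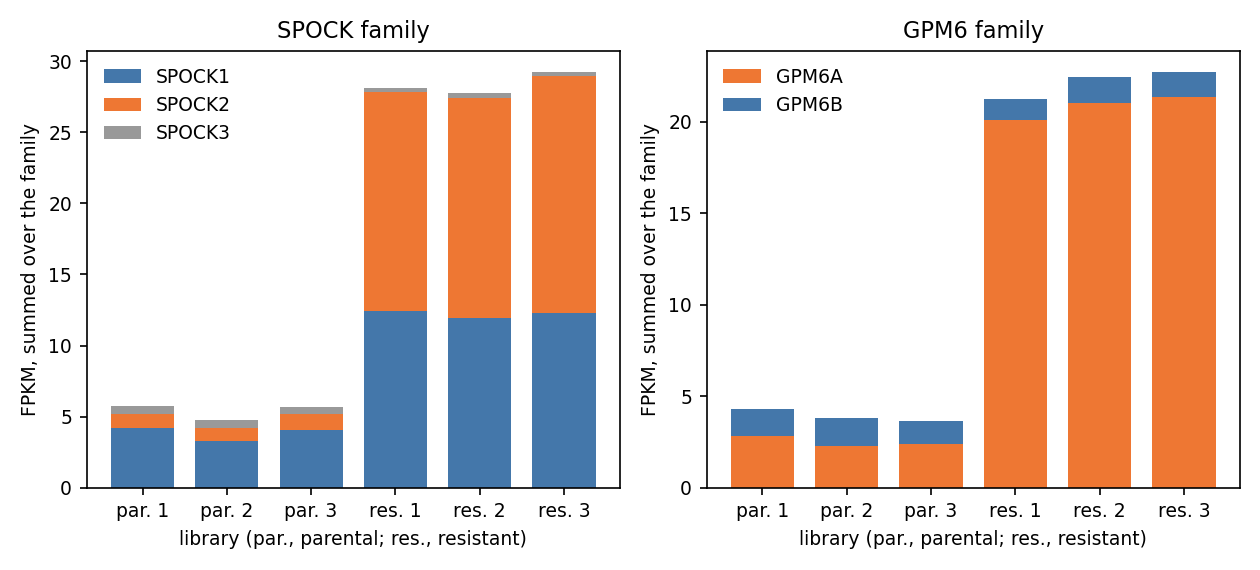
FPKM of the SPOCK genes (left) and the GPM6 genes (right) in each library, stacked to the family sum, with parental libraries at the left of each panel. The SPOCK sum goes from between 4.79 and 5.74 to between 27.7 and 29.3 FPKM with SPOCK2 as its largest part, and nearly all of the resistant GPM6 sum is GPM6A.

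Genes around the members were drawn from lists, and here tests are given. Over all tested genes, 17.1% passed an FDR below 0.05 as higher and 18.4% as lower, and the median log2 fold change was 0.0038. Of 5 SPARC relatives, SMOC1 and FSTL1 were tested, whereas SPARC had at most 1 count and SPARCL1 at most 3 counts in any library and SMOC2 had 0 counts throughout. FSTL1, a secreted follistatin-like glycoprotein, fell by 0.47 on the log2 scale (FDR 0.0273 from edgeR), and did not pass without parental library 1 (FDR 0.0558), parental library 3 (0.0669) or resistant library 1 (0.133). SMOC1 was at 5.33 ± 1.09 CPM in parental and 6.03 ± 1.13 CPM in resistant cells (SD, n = 3 each). No gene of this list passed as higher (0 also at an unadjusted p under 0.05 in edgeR and at an FDR below 0.05 in DESeq2 and limma-voom).

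Of 13 proteases and protease inhibitors that testicans act on or beside, 9 were tested, 4 fell, 5 did not pass and none passed as higher (0 also at an unadjusted p under 0.05 in edgeR and at an FDR below 0.05 in DESeq2 and limma-voom). Their median log2 fold change was −0.19. TIMP2, an inhibitor that also takes part in the activation of MMP2 on the cell surface, fell from 11.6, 11.0 and 10.8 CPM in the parental libraries to 4.71, 3.47 and 3.76 CPM in the resistant libraries, a log2 fold change of −1.48 (SE 0.144, FDR 2.86e-11). MMP14, a membrane-type MMP, had a log2 fold change of −1.11 (FDR 0.0148) on 17 to 30 counts in parental and 7 to 14 counts in resistant libraries, and its call was lost without parental library 1 (FDR 0.0704) or resistant library 1 (FDR 0.118). CTSL, which encodes cathepsin L, fell by 0.24 on the log2 scale (FDR 0.00149) and MMP15 by 0.19 (FDR 0.00184). The other membrane-type MMPs tested, MMP16 and MMP24, were at 74.6 and 33.8 CPM in parental and 73.5 and 34.0 CPM in resistant cells. TIMP1, the list's most abundant mRNA per length, was at 57.4 ± 2.06 and 57.1 ± 5.63 CPM (SD, n = 3 each), and MMP2 had 0 counts in all libraries.

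Of 28 other proteoglycan core proteins, 24 were tested, of which 5 rose, 10 fell and 9 did not pass, with a median log2 fold change of −0.33. The genes that fell were 41.7% of those tested, against 18.4% of all genes, and those that rose were 20.8%, against 17.1%. The count of 10 became 7 with DESeq2 or without resistant library 3, and 5 with limma on log2(FPKM + 1). LUM, which encodes lumican, a small leucine-rich proteoglycan, fell from 99.3, 93.6 and 95.2 CPM to 26.0, 30.0 and 30.3 CPM, a log2 fold change of −1.74 (SE 0.0572, FDR 1.11e-26). HSPG2 (perlecan, of basement membranes) had a log2 fold change of −1.64 (FDR 6.43e-05), CD44 (the hyaluronan receptor) of −1.10 (FDR 5.73e-18) and BGN (biglycan) of −1.10 (FDR 0.0325). The call for BGN rested on 6 to 23 counts a library and did not hold with DESeq2 (FDR 0.0937), limma-voom (FDR 0.0516), limma on log2(FPKM + 1) (FDR 0.0565) or without any 1 library other than parental library 1 (FDR 0.0583 to 0.185).

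In the direction of SPOCK1 and SPOCK2, PTPRZ1, a receptor phosphatase of neural cells that can be made as a chondroitin sulfate proteoglycan, rose from 1.22, 1.49 and 2.09 CPM to 8.08, 7.82 and 7.83 CPM, a log2 fold change of 2.33 (SE 0.197, FDR 5.47e-13). It was the only gene of the 24 tested core proteins to be called higher, and on the log2(FPKM + 1) scale its change of 0.63 was under the fold threshold. The others that passed as higher were the glypicans GPC6 (log2 fold change 0.68, FDR 1.19e-14) and GPC5 (0.85, FDR 0.0368) and the syndecans SDC2 (0.33, FDR 8.91e-05) and SDC1 (0.19, FDR 0.0124). GPC5 did not pass without any 1 library other than parental library 2 (FDR 0.0637 to 0.128) with DESeq2 (FDR 0.0987) and without a filter on counts (FDR 0.0542), SDC1 without parental library 2 (FDR 0.0964) or resistant library 3 (FDR 0.0813), and the count of 5 became 3 without resistant library 3. AGRN (agrin) was at 175.7 CPM in parental and 175.2 CPM in resistant cells.

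Testicans carry heparan and chondroitin sulfate chains, and of 45 enzymes that build or modify such chains 36 were tested. Of these, 6 rose, 9 fell and 21 did not pass, shares of 16.7% and 25.0% beside 17.1% and 18.4% of all genes, and the median log2 fold change was −0.02. Without parental library 1 the number that fell was 5. The enzymes called were sulfotransferases at low levels: CHST13 (log2 fold change −2.12, FDR 1.39e-04) and HS3ST4 (−1.78, FDR 6.38e-05) fell, and HS3ST1 (1.75, FDR 0.00547) rose, with at most 43 counts in any library. CHPF, a chondroitin-polymerizing factor, fell by 0.35 on the log2 scale (FDR 1.73e-09), and FAM20B, a kinase that primes the linker of the chains, was at 195.1 and 194.4 CPM.

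Among MARVEL-domain proteins and related tetraspan proteins, 18 of 23 genes were tested, 3 rose, 2 fell, and 13 did not pass, with a median log2 fold change of −0.035. CMTM6, a MARVEL protein that stabilizes PD-L1 at the cell surface, rose by a log2 fold change of 0.30 (FDR 2.17e-07), CMTM7 by 0.34 (FDR 0.0135) and MARVELD2 (tricellulin, of tight junctions) by 0.15 (FDR 0.0235). MYADM fell by 0.82 on the log2 scale (FDR 1.32e-14) and CMTM4 by 0.13 (FDR 0.00737). The numbers were small, with 1 gene higher without resistant library 2 and 1 gene lower without resistant library 3. CMTM7 did not pass without parental library 2 (FDR 0.0777) or resistant library 2 (FDR 0.139), MARVELD2 without parental library 3 (FDR 0.0744), resistant library 2 (FDR 0.121) or resistant library 3 (FDR 0.153), and CMTM4 without parental library 1 (FDR 0.149) or resistant library 3 (FDR 0.0574). MAL2 and SYNGR2, the most abundant of the list per length, were at 300.0 ± 20.7 and 244.1 ± 6.92 CPM in parental and 286.8 ± 8.52 and 252.8 ± 2.57 CPM in resistant cells (SD, n = 3 each). MAL2 passed as lower only without parental library 3 (FDR 0.0153).

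**Figure D3:**
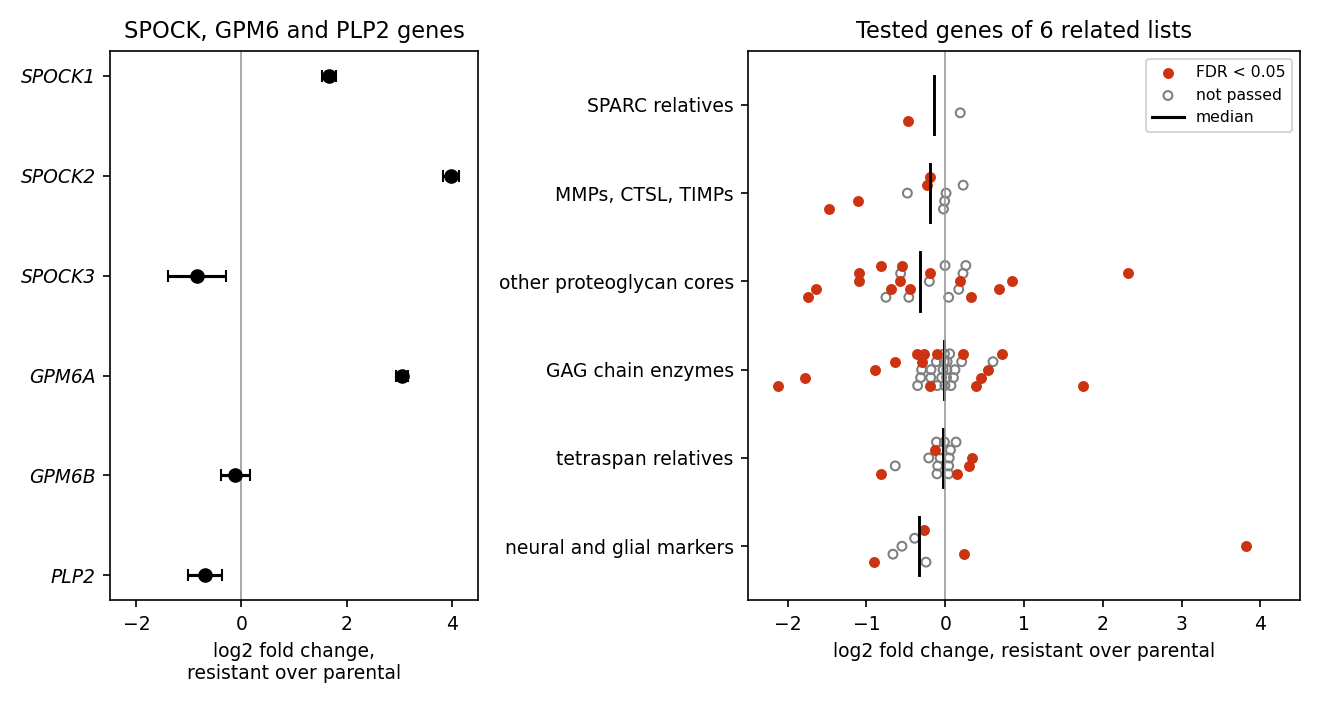
Left, log2 fold change of the 6 genes with 95% confidence intervals. Right, log2 fold changes of the tested genes of the 6 lists, filled where the FDR from edgeR was less than 0.05. The median of each list is a black bar. SPOCK2 at 3.99 and GPM6A at 3.05 lie beyond all of these genes but NEFL at 3.82, which SPOCK2 exceeds. NEFL had 0 to 5 counts in parental libraries. Its value was 2.53 with a prior count of 5 and 3.34 to 4.57 with 1 library left out.

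Since both families are rich in brain, markers of neurons and glia were set beside them. Of 20 such markers, 8 were tested, 2 rose, 2 fell and 4 did not pass, with a median log2 fold change of −0.33. Their summed level was 113.2 to 120.8 CPM in parental and 111.0 to 117.7 CPM in resistant libraries, so the sum overlapped between the groups. DCX, S100B, MOG and MAG had 0 counts throughout. NEFL, a neurofilament subunit, rose from 3, 5 and 0 counts to 46, 31 and 40 counts (log2 fold change 3.82, FDR 5.62e-09), and MAP2, a dendritic microtubule protein, rose by a log2 fold change of 0.23 (FDR 3.39e-04). SNAP25, of the synaptic vesicle fusion machinery, fell by 0.27 on the log2 scale (FDR 8.72e-04), and MBP, the myelin basic protein, by 0.90 (FDR 7.33e-08). MAP2 (56.2 CPM in parental and 66.1 CPM in resistant cells) and SNAP25 (39.9 and 33.2 CPM) made up most of the summed level. It therefore says little about the weaker markers.

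Of 11 markers of fibroblasts, endothelium, blood cells and smooth muscle, 4 had enough counts to be tested. CDH5 and CD3E had 0 counts in every library. The summed level was 17.2 to 20.2 CPM in parental and 25.6 to 28.4 CPM in resistant libraries, in which MYH11, the smooth muscle myosin heavy chain, rose from 2.73, 3.04 and 1.30 to 14.7, 11.8 and 13.6 CPM (log2 fold change 2.47, FDR 1.35e-15), and COL1A1 fell by 0.28 on the log2 scale (FDR 0.0348) and did not pass without parental library 2 (FDR 0.175), resistant library 1 (FDR 0.0806) or resistant library 2 (FDR 0.109). The part of other cell types in the levels of SPOCK2 and GPM6A was not tested.

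The neighborhood of the most changed genes was examined within 500 kb. Around SPOCK2, 8 of 24 listed genes were tested, 5 rose and 1 fell, with a median log2 fold change of 0.25. Beside these few genes, 17.1% of all tested genes passed as higher and 18.4% as lower. ASCC1, 7.0 kb away, rose from 26.2 ± 1.78 to 40.2 ± 2.03 CPM (SD, n = 3 each), a log2 fold change of 0.62 (FDR 1.58e-09). CHST3, a chondroitin 6-sulfotransferase 45.5 kb away on the other side, rose by a log2 fold change of 0.46 (FDR 1.03e-06). DDIT4 (0.43), PSAP (0.26) and ANAPC16 (0.25) also rose, with FDRs from 4.21e-10 to 1.49e-04, and DNAJB12 (−0.03) did not pass. CDH23, a cadherin of hair cells, was the 1 gene that fell (log2 fold change −1.20, FDR 6.50e-10). None of the 8 came near the 3.99 of SPOCK2.

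Around GPM6A, 3 of 14 listed genes were tested. WDR17, 63.2 kb away, rose from 53.2, 59.7 and 54.3 CPM to 135.7, 140.3 and 135.8 CPM, a log2 fold change of 1.30 (SE 0.0452, FDR 8.89e-26). SPCS3, a signal peptidase subunit, rose by a log2 fold change of 0.21 (FDR 4.77e-07). ASB5 had a log2 fold change of 1.12 that did not pass (FDR 0.0817) but did without parental library 1 (log2 fold change 1.82, FDR 0.0256) and with limma-voom (FDR 0.0448).

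**Figure D4:**
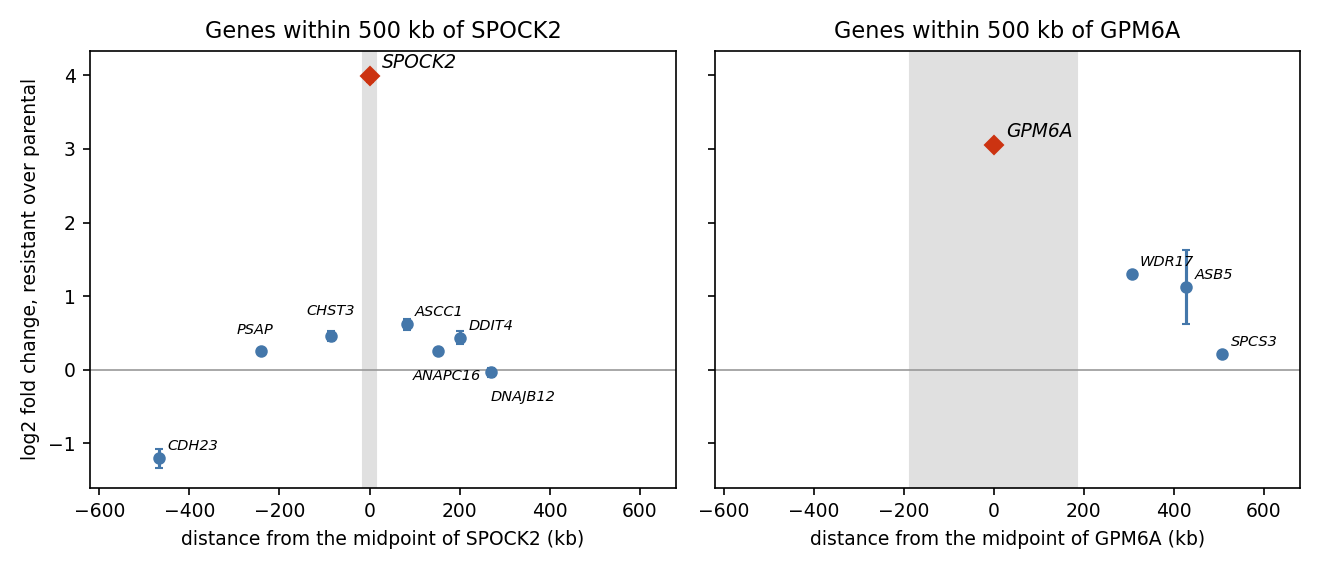
Log2 fold change (with SE) of the genes named in the text within 500 kb of SPOCK2 (left) and GPM6A (right), by distance of gene midpoints in kb; the gray band is the span of the gene itself. SPOCK2 and GPM6A (red) stand above all the neighbors drawn, of which WDR17 at 1.30 is the highest.

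Genes with the profile most like SPOCK2 and GPM6A were sought among tested protein-coding genes by the root mean square distance of log2 CPM over the 6 libraries, each profile centered on its parental mean. For GPM6A these were APOD, a lipocalin (distance 0.0968), KRT19, an epithelial keratin (0.127), and TMEFF2, a transmembrane protein with follistatin-like domains (0.138). For SPOCK2 they were SLC5A6, the sodium-dependent multivitamin transporter (0.207), ANKRD30B (0.233) and RNASE1, a secreted ribonuclease (0.390). RNASE1 had 0 counts in every parental library and 10 to 12 in resistant ones, at least 3.66-fold higher against 3 counts a library, so its distance depends on the 0.5 added to counts. APOD (5 to 7 counts) and ANKRD30B (9 to 12 counts) were also weak in parental libraries. Their log2 fold changes were 3.185 and 3.807, and 2.46 and 3.301 with a prior count of 5. SPOCK2 and GPM6A themselves were 0.663 apart. KRT19, for example, went from 9.02 ± 0.183 to 80.1 ± 4.60 CPM and SLC5A6 from 44.9 ± 2.76 to 585.6 ± 3.44 CPM (SD, n = 3 each). The likeness rests on the difference between the groups, which was the basis for the choice of SPOCK2 and GPM6A.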

How the data were processed

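RNA-Seq counts of 3 parental and 3 resistant libraries were analyzed. Per the labels and the methods of the study, the authors trimmed reads with fastp, mapped them to hg38 with HISAT2 (2.0.5) and counted them per gene with featureCounts (1.5.0-p3), and the deposited table holds these raw counts and, as another quantity, gene lengths. The annotation release and the use of strand were not given in the sources used here. No human genome sequence was used here, and no columns of sample values were left out (0). Some single genes of the lists and neighborhoods are counted but not reported here.

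Genes were filtered with edgeR's filterByExpr, scaled with TMM and tested with the quasi-likelihood F-test of edgeR 4.0.16 (R 4.3.3, prior count 0.125), with Benjamini-Hochberg adjustment over 17142 genes. SEs are the log2 fold change over the square root of F. FPKM used the listed lengths. Counting floors cover counting error only. Replicate libraries differed by more than sampling noise (chi-square per degree of freedom 1.77 to 2.45 within groups). The fits were also run on simulated data as a check of the code, and no result here rests on that run.

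The genes and the lists were chosen with earlier results of these data known. Named were the 6 genes, the most changed called genes (at most 4) and the 2 most abundant of each list, tested neighbors within 500 kb, overlapping genes and the 3 most similar profiles for SPOCK2 and GPM6A. CD44, MMP15, MMP16, MMP24, MBP, SDC1, SDC2, GPC5, GPC6, CMTM4, CMTM6, CMTM7, MARVELD2, MYADM and genes named only for having almost no counts were named after their values were seen. Alternatives were DESeq2 (1.42.0), limma-voom (limma 3.58.1), limma on log2(FPKM + 1), no TMM factors (library size alone), a prior count of 5 (its use on genes beyond the 6 was chosen after seeing the data), no filter on counts, a minimum of 10 counts per library, the replicate block and leaving out each library.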

Additional observations from a re-analysis of the deposited data

How the results depend on the processing

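Of 268 values for the 6 genes, the counts of calls and the lists, 246 stayed within the spread between replicates or within 1.5 times under the alternatives, 22 moved and 0 reversed. The cause of each change was not tested. With limma on log2(FPKM + 1), which shrinks changes of weak genes, log2 fold changes were 3.07 for SPOCK2, 2.64 for GPM6A, 1.45 for SPOCK1 and −0.24 for SPOCK3, 116 genes were called higher and 64 lower (434 and 487 in edgeR), and 5 proteoglycan cores, 1 tetraspan relative and 0 SPARC relatives passed as lower and 1 tetraspan relative as higher. With at least 10 counts in every library, 248 genes were called higher and 287 lower, and 1 neural marker passed as higher. With DESeq2 and without a filter, 0 SPARC relatives passed as lower.

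With 1 library left out, log2 fold changes ranged from 3.92 to 4.07 for SPOCK2, 2.98 to 3.16 for GPM6A, 1.56 to 1.73 for SPOCK1, −0.97 to −0.72 for SPOCK3, −0.82 to −0.63 for PLP2 and −0.20 to −0.04 for GPM6B. List genes that passed ranged from 0 to 1 (SPARC relatives, lower), 3 to 4 (proteases and inhibitors, lower), 3 to 4 (cores, higher) and 7 to 10 (cores, lower). The ranges were 4 to 5 (chain enzymes, higher), 5 to 11 (chain enzymes, lower), 1 to 3 (tetraspan relatives, higher) and 1 to 3 (tetraspan relatives, lower).

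Of 773 values for 56 other genes that were followed singly, 710 kept direction and side of the threshold, 45 lost and 3 gained significance, and 15 changed sign, all of genes near 0. With 1 library left out, these ranged from −0.02 to 0.01 (AGRN), −0.085 to 0.06 (TIMP1), −0.021 to 0.051 (MMP24), −0.076 to 0.009 (MMP16), −0.021 to 0.012 (FAM20B) and −0.067 to 0.004 (DNAJB12) on the log2 scale. MMP24 was at −0.006 with library size alone. Beside BGN and GPC5, an FDR below 0.05 was lost with DESeq2 for FSTL1 (0.0833), MMP14 (0.0545), COL1A1 (0.102) and MARVELD2 (0.0659), with limma on log2(FPKM + 1) for FSTL1 (0.052), COL1A1 (0.113), MARVELD2 (0.0984), HSPG2 (0.0532), HS3ST1 (0.0907), CMTM7 (0.0628) and CMTM4 (0.113), and without a filter for FSTL1 (0.051) and COL1A1 (0.0698). With limma on log2(FPKM + 1), further called genes kept their FDR but not the fold threshold: TIMP2 (−0.80), MMP14 (−0.21), CD44 (−0.86), PTPRZ1 (0.63), CHST13 (−0.60), HS3ST4 (−0.51), NEFL (0.60), MYH11 (0.68), CDH23 (−0.35) and RNASE1 (0.55). With a prior count of 5, MMP14 (−0.86) and BGN (−0.80) did not reach it either.

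Both groups carry replicate numbers 1 to 3. Deviations of same-numbered libraries from their group means had correlations of −0.0073, −0.021 and −0.012 over all tested genes. Counting error in weak genes dilutes such correlations. Whether same-numbered libraries were prepared together was not tested. With the replicate block, SPOCK2 had a log2 fold change of 3.99 and GPM6A of 3.05, and 418 genes were called higher and 471 lower.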

Other observations

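Counting error alone predicts a coefficient of variation of 5.10% for SPOCK1 and 5.95% for GPM6A in parental libraries, and the observed values were 12.7% and 11.8%. In resistant libraries the observed values were 2.10% and 3.23%, against 2.88% and 2.08% from counting. Parental library 2 was the lowest of its group in CPM for SPOCK1, SPOCK2, GPM6A and PLP2 and the highest for SPOCK3 and GPM6B. SPOCK3, at 18 to 43 counts a library, had observed values of 8.55% and 17.2% in parental and resistant libraries, under the 16.2% and 21.8% from counting.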
